A study of Mus musculus with 8 samples.

Results

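The genes described here carry a cell through mitosis. They are 51 genes chosen by name: mitotic cyclins and kinases, genes of the spindle checkpoint, the centromere and the kinetochore, condensin subunits, and genes of the spindle and of cytokinesis, without kinesin motors other than Cenpe. The deposited table held 20976 genes, and all 51 were found in it. All 51 also passed the filter on low values, which kept 12910 genes, and the lowest value of any of them in any library was 57 normalised reads.

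The RNA came from cultured stem cells of mouse skeletal muscle. These are the cells under the basal lamina that express Pax7 and repair skeletal muscle. The Cre group was 4 libraries of Chd4LoxP/LoxP cells infected with an adenovirus that carries Cre recombinase, which cuts exons 12 to 21 out of Chd4. The GFP group was 4 libraries of Chd4LoxP/LoxP cells infected with an adenovirus that carries GFP, so both groups had the floxed alleles, a viral infection and the same culture. Per the labels' protocols, the cells were purified by flow cytometry, grown briefly in medium with 20% fetal calf serum and 5 ng/ml bFGF, infected and snap frozen, and per the series' design text each group came from 4 mice. The sources used here give neither the age and sex of the mice nor the dose of virus and the time between infection and freezing.

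Chd4 encodes a chromatin remodelling ATPase of the NuRD complex. Chd4 (chr6:125095981-125130591, GRCm38, plus strand) had 3686, 5480, 5010 and 5134 normalised reads in Cre libraries 1 to 4, against 17886, 15904, 16634 and 20121 in GFP libraries 1 to 4. Every Cre library lay below every GFP library, and the Cre mean was 27.4% of the GFP mean. The log2 change of Chd4 was -1.88 ± 0.14 (SE, n = 4 each), with an adjusted p of 0.00328 in limma with Benjamini-Hochberg adjustment over all 12910 genes. Reads of exons outside the deleted stretch still count towards this value. The libraries were estimated to hold 23.3 to 38.0 M reads before the authors' scaling. Replicates of a group differed by 23.4 to 132 in chi-square per degree of freedom, so no library repeated another, and for these well covered genes the spread between libraries sets the precision. In bulk RNA, fewer cells of a type and less RNA per cell cannot be told apart, so a lower value of a mitotic gene can mean either.

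As background, entry into mitosis depends on the kinase Cdk1 bound to cyclin B, and the spindle checkpoint then holds the cell until every chromosome is attached to the spindle. The checkpoint blocks Cdc20, the activator of the anaphase-promoting complex, the ubiquitin ligase whose substrates include cyclin B and securin. Most of these genes are transcribed late in the cell cycle. Their transcription runs through the MuvB complex, B-Myb and FoxM1 at a promoter element called the CHR, and through NF-Y at CCAAT boxes. Resting muscle stem cells express little of this programme, and dividing myoblasts express much of it.

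The promoter windows below are shown because these 2 elements are what many of the genes have in common. Each runs from 150 bases before the RefSeq gene start (GRCm38.p6) to at most 30 bases after it, 5′ to 3′ on the strand of the gene, and capitals mark the CHR core TTTGAA and the NF-Y box CCAAT, printed as ATTGG where it lies on the other strand. Ccnb2, Cdk1, Cdc20 and Racgap1 hold both, Sapcd2 had the lowest log2 change of the 51, and Cdc25b was the only one of the 51 that did not fall in the paired model.
Ccnb2, chr9:70421525-70421704, minus strand: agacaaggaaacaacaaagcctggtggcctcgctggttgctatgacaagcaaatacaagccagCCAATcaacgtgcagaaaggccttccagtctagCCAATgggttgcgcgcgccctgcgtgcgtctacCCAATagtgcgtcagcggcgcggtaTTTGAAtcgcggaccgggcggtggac
Cdk1, chr10:69352909-69353062, minus strand: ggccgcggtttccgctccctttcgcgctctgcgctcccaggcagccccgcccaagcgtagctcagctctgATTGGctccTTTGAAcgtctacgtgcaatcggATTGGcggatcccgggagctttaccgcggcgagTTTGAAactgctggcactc
Cdc20, chr4:118437323-118437493, minus strand: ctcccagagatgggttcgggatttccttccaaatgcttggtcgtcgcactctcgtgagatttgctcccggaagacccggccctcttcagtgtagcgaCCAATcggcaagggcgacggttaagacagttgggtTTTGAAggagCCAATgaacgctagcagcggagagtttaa
Racgap1, chr15:99651627-99651806, minus strand: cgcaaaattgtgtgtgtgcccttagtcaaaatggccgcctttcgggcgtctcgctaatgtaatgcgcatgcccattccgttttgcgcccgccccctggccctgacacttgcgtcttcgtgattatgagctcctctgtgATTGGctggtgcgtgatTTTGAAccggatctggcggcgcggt
Sapcd2, chr2:25371885-25372064, plus strand: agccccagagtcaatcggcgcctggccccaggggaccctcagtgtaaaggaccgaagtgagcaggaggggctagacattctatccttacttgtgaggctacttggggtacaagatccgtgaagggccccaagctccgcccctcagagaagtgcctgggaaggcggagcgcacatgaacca
Cdc25b, chr2:131186798-131186977, plus strand: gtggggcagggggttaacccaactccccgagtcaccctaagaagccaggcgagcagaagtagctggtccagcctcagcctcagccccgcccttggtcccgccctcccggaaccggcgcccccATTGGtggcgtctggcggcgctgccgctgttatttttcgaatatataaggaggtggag
In these windows Ccnb2 had 1 CHR core and 3 CCAAT boxes, Cdk1 had 2 CHR cores and 2 CCAAT boxes, Cdc20 had 1 CHR core and 2 CCAAT boxes, and Racgap1 had 1 of each. The Cdc25b window held a CCAAT box and no CHR core. The Sapcd2 window held neither, and its RefSeq start lies 286 bases upstream of the gene start in the deposited table.

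Mitotic transcripts were lower in Cre than in GFP libraries across nearly the whole set. The median log2 change of the 51 genes was -0.72, within a range of -1.19 to 0.01, against a median of 0.00 over all 12910 genes tested. The Cre mean was between 44.0 and 101% of the GFP mean, with a median of 62.4%. A log2 change of -0.5 or below was found for 44 of the 51 genes and for 5.24% of all genes tested, and a change of -1 or below for 2 of the 51, Sapcd2 and Spc24. On reads per kilobase of exon, the highest level in GFP libraries was that of the condensin subunit Ncapd2, at 1194 ± 480 in Cre libraries and 1909 ± 655 in GFP libraries (SD over the 4 libraries of each group). The lowest was that of Sapcd2, at 26.9 ± 9.3 in Cre and 61.0 ± 17.5 in GFP.

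Whether these differences passed a test depended on how the replicate numbers were used. Without them, 0 of the 51 genes passed in limma with Benjamini-Hochberg adjustment (adjusted p from 0.118 to 0.983, n = 4 each), where 0.248% of all genes were called lower and 0.837% higher. At an unadjusted p under 0.05 there were 16 of the 51 lower and 0 higher, against 9.3% of all genes lower, and limma voom also called 0. With the replicate number as a block, 50 of the 51 fell and 0 rose, against 21.7% of all genes that fell and 22.2% that rose. Adjusted p-values of the 50 in this paired model lay between 7.02e-06 and 0.00152, and voom with the block called the same number. That equal numbers come from 1 mouse is not stated in the labels. The pairing rests on the values, since libraries of the same number deviated from their group means together (correlations of 0.820 to 0.908, against -0.597 to 0.477 between other libraries).

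The libraries of both groups were ordered alike across the set. In 50 of the 51 genes Cre library 1 was the lowest of the Cre libraries, and in all 51 Cre library 4 was the highest of them. In 49 genes GFP library 1 was the lowest of the GFP libraries, and in 49 GFP library 4 was the highest of them. Cre library 4 lay above GFP library 1 in 49 genes, so the groups overlapped. The 51 genes together took 0.179, 0.306, 0.394 and 0.480% of the normalised reads in Cre libraries 1 to 4, against 0.349, 0.477, 0.576 and 0.757% in GFP libraries 1 to 4. Each Cre library lay below the GFP library of its number, and the ranges of the groups overlapped.

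**Figure D1:**
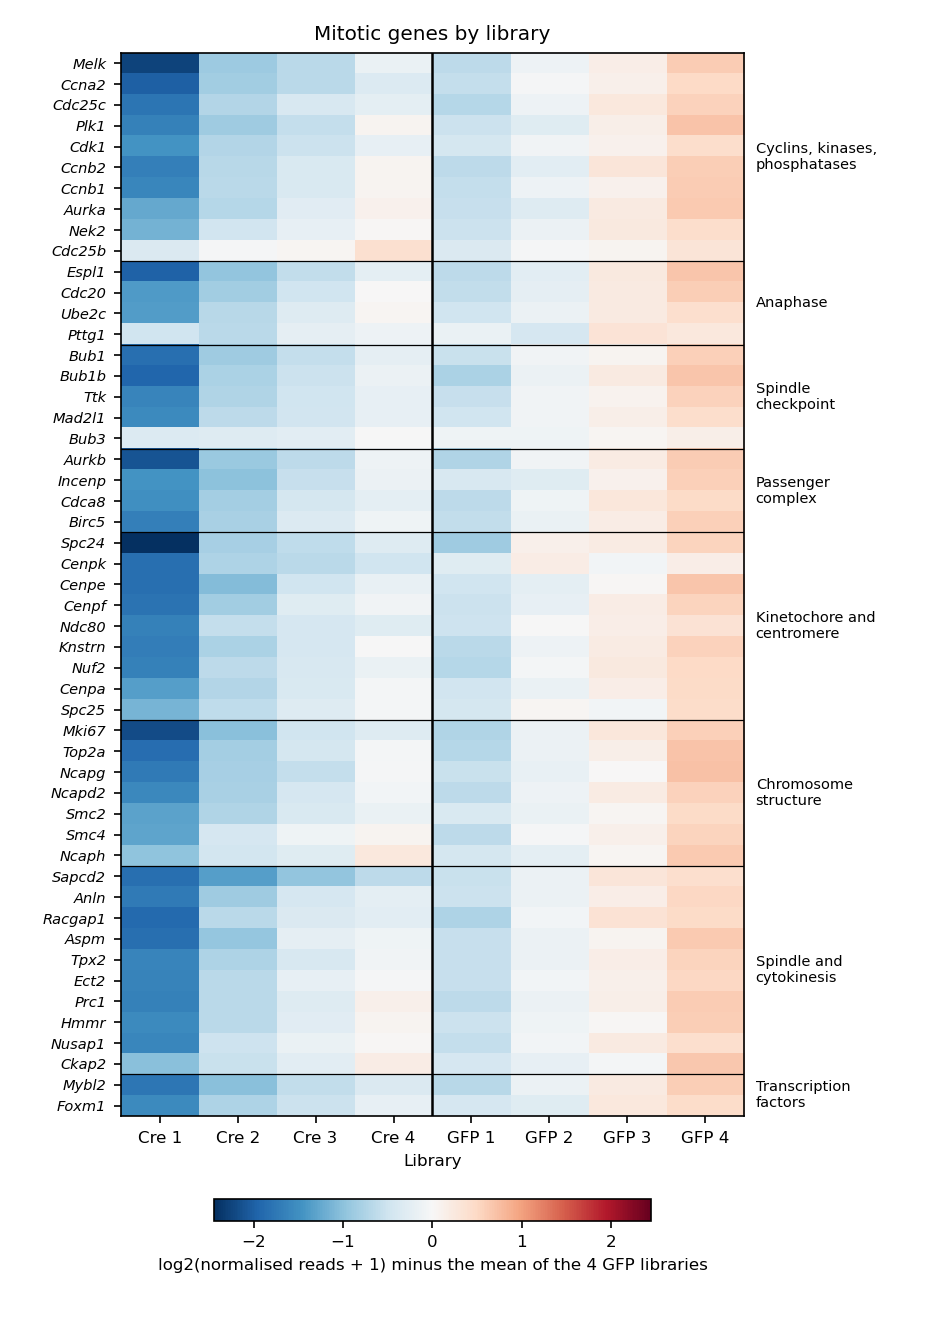
Colour gives the log2(normalised reads + 1) of each mitotic gene (rows, grouped by role and ordered by change) in each library (columns), minus the mean of the 4 GFP libraries for that gene. Cre library 1 is the darkest blue column, at a median of -1.64, Cre library 4 is close to white at -0.10, and GFP libraries 1 and 4 lie at -0.56 and 0.56.

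Only 2 of the 51 genes, Sapcd2 and Cenpk, had all 4 Cre values below all 4 GFP values. That is 3.92% of them, against 6.17% of all genes tested. The count was 12 without Cre library 4 and 18 without GFP library 1. Leaving out a library makes a lack of overlap easier for any gene, and the share of all genes was not computed for these settings. Within numbers the picture differed: 50 of the 51 were lower in Cre in all 4 pairs, against 27.6% of all genes. The median log2 change of the 51 was -1.06 in pair 1, -0.62 in pair 2, -0.57 in pair 3 and -0.64 in pair 4, and pair 1 had the largest fall in 48 genes. Without pair 1 the median of the paired model was -0.62, and 50 genes still passed. The median standard error of the log2 change was 0.36 without the block and 0.08 with it.

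**Figure D2:**
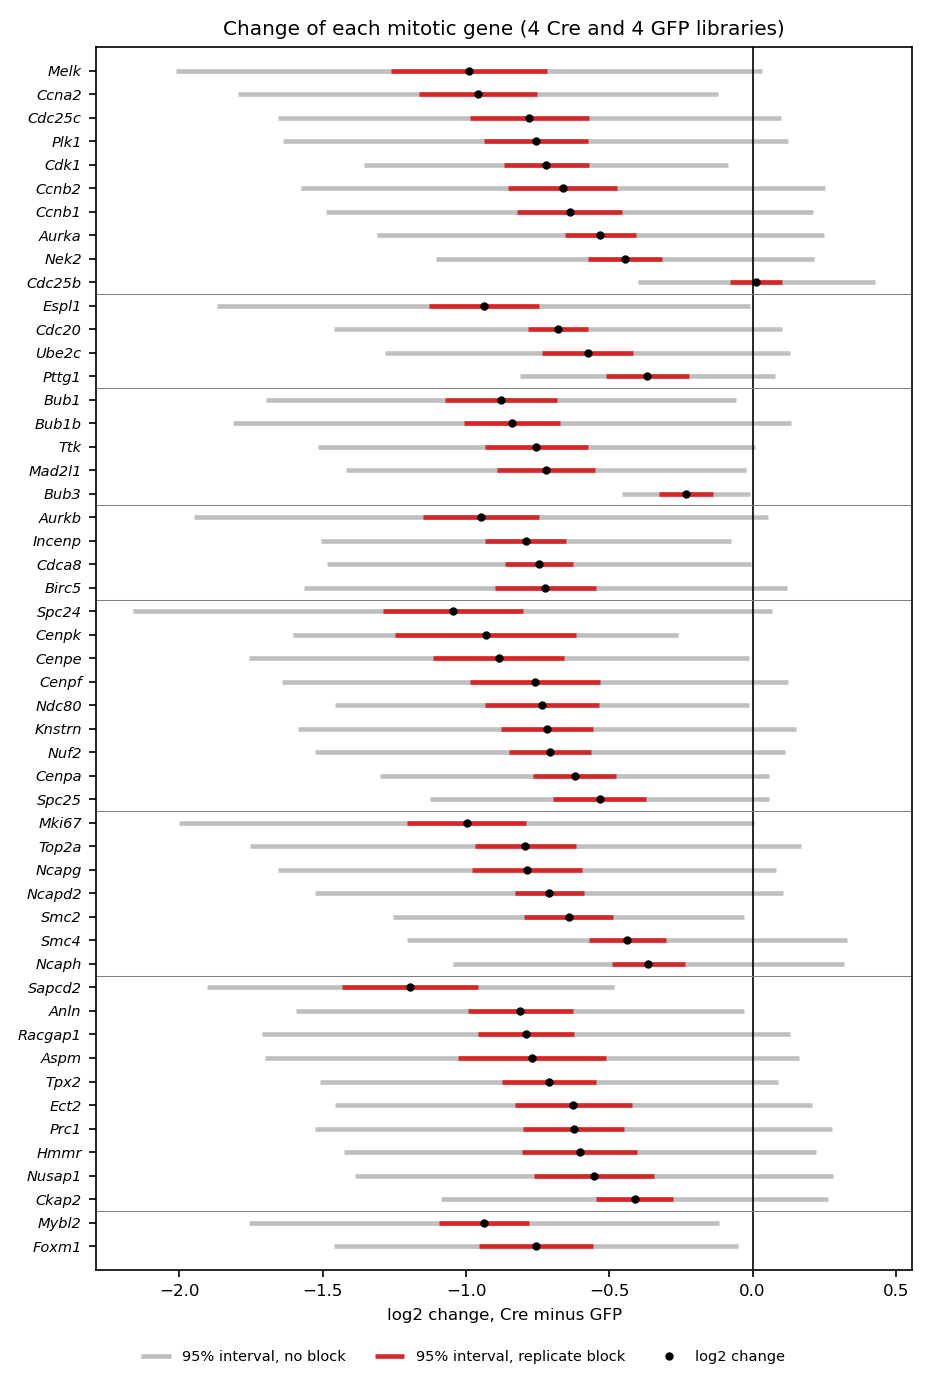
Points give the log2 change, Cre minus GFP, of each mitotic gene over 4 Cre and 4 GFP libraries, with grey bars for the 95% interval without the block and red bars for that with the replicate number as a block. The red bars of 50 genes lie below 0 and that of Cdc25b spans 0, while many grey bars reach past 0.

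The median SD of the log2 values was 0.66 in Cre and 0.47 in GFP for the 51 genes, against 0.21 in Cre and 0.22 in GFP over all genes tested. Across the 51 genes, those with a wider spread among GFP libraries had a lower log2 change (Pearson r = -0.50, Spearman rho = -0.45). These are correlations across genes that share the same GFP libraries, given as a description.

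The cyclins, kinases and phosphatases that start mitosis were lower in Cre, apart from one phosphatase. Of the 10 genes of this group 9 fell in the paired model, against 21.7% of all genes tested, and the median log2 change of the 10 was -0.69. The same share of all genes stands beside the paired counts of the other roles below. Without the block 0 genes of any role passed. Cdk1 (chr10:69335146-69352938, minus strand), the kinase that drives entry into mitosis, had 1664, 2763, 3180 and 3977 normalised reads in Cre libraries 1 to 4, against 3378, 4272, 4873 and 6083 in GFP libraries 1 to 4. Cre was lower in each pair, at 49.3, 64.7, 65.3 and 65.4% of GFP, and Cre library 4 exceeded GFP library 1. The log2 change of Cdk1 was -0.72, with an SE of 0.28 and an adjusted p of 0.250 without the block, and with an SE of 0.07 and an adjusted p of 2.7e-05 in the paired model (limma). Melk, a kinase of dividing cells, had 228, 585, 694 and 969 normalised reads in Cre libraries 1 to 4, against 695, 999, 1214 and 1664 in GFP libraries 1 to 4. It had the largest fall of this group, with a log2 change of -0.99 ± 0.12 (SE, paired model), and Cre library 1 stood far below the other Cre libraries. Within each group the cyclins had the same order of libraries. Ccna2, a cyclin of S phase and early mitosis, had a log2 change of -0.96, and the B cyclins Ccnb1 and Ccnb2, the partners of Cdk1, had changes of -0.64 and -0.66. The Ccna2 gene overlaps Exosc9 on the opposite strand, whose normalised reads were 53.9% of those of Ccna2, and the sources used here do not say whether counting used strand. The mitotic kinases Plk1, Aurka and Nek2 had changes of -0.76, -0.53 and -0.45, and all 3 passed in the paired model.

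Cdc25b and Cdc25c are phosphatases that remove the inhibitory phosphates of Cdk1, and of these only Cdc25c fell in the paired model. Cdc25b (chr2:131186949-131198497, plus strand) had 2560, 3190, 3344 and 4241 normalised reads in Cre libraries 1 to 4, against 2547, 3173, 3414 and 4050 in GFP libraries 1 to 4. The values of equal number lay within a few percent of each other, Cre being 101, 101, 97.9 and 105% of GFP, while both groups had their lowest value in library 1 and their highest in library 4. The log2 change of Cdc25b in the paired model was 0.01, with a 95% interval of -0.08 to 0.10 and an adjusted p of 0.825 (limma). The highest upper bound among the other 50 genes was -0.14. Its sign depended on the scaling and was negative when values were rescaled to the same total. Cdc25c stood at 58.5 ± 23.0 reads per kilobase of exon in Cre and 97.9 ± 34.3 in GFP, against 894 ± 186 in Cre and 884 ± 167 in GFP for Cdc25b (SD, 4 libraries each). The annotation used for lengths gave Cdc25c other coordinates than the deposited table, so its reads per kilobase are approximate. For Cdc25b the coordinates were the same. The log2 change of Cdc25c was -0.78.

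**Figure D3:**
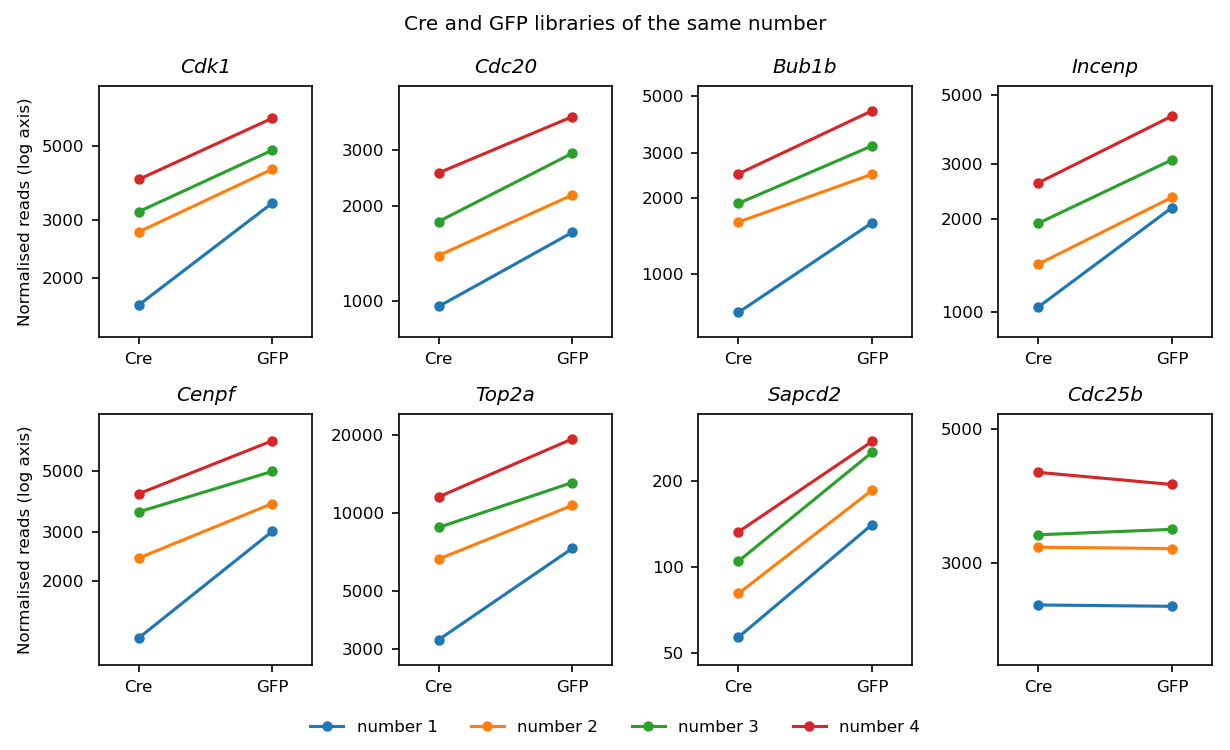
Each panel plots the normalised reads (log axis) of a gene in the Cre and GFP libraries, with lines joining libraries of the same number. All 4 lines slope the same way, with Cre lower, in 7 panels, and the lines of Cdc25b are nearly flat, with Cre at 97.9 to 105% of GFP.

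The genes that take the cell out of metaphase all fell in the paired model, 4 of 4, with a median log2 change of -0.63. Cdc20 (chr4:118432901-118437352, minus strand), the mitotic activator of the anaphase-promoting complex, had 964, 1396, 1788 and 2546 normalised reads in Cre libraries 1 to 4, against 1652, 2168, 2936 and 3831 in GFP libraries 1 to 4. Cre stood at 58.4, 64.4, 60.9 and 66.5% of GFP in the 4 pairs, a narrow range beside the spread within each group. Its log2 change was -0.68 ± 0.05 (SE, paired model), with the lowest adjusted p of the 51 genes, 7.02e-06, and 0.365 without the block (limma). Cdc20 overlaps Elovl1 on the opposite strand, whose normalised reads were 89.2% of those of Cdc20. Ube2c, the ubiquitin-conjugating enzyme of the complex, had 1017, 1639, 2099 and 2682 normalised reads in Cre libraries 1 to 4, against 1874, 2355, 3023 and 3474 in GFP libraries 1 to 4. Espl1 encodes separase, the protease that opens cohesin. It had 401, 807, 1036 and 1336 normalised reads in Cre libraries 1 to 4, against 1002, 1310, 1852 and 2495 in GFP libraries 1 to 4. Both were lower in each pair, with log2 changes of -0.58 for Ube2c and -0.94 for Espl1. Pttg1, which encodes securin, the inhibitor of separase, had a log2 change of -0.37 and was 1 of 3 genes whose largest fall was not in pair 1.

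All 5 genes of the spindle checkpoint fell in the paired model, with a median log2 change of -0.75. Bub1b, whose product BubR1 is part of the complex that holds Cdc20, had 710, 1604, 1898 and 2477 normalised reads in Cre libraries 1 to 4, against 1594, 2469, 3190 and 4377 in GFP libraries 1 to 4. Bub1, a checkpoint kinase at the kinetochore, had 592, 1158, 1405 and 1818 normalised reads in Cre libraries 1 to 4, against 1451, 1987, 2204 and 3155 in GFP libraries 1 to 4. Their log2 changes were -0.84 ± 0.08 for Bub1b and -0.88 ± 0.09 for Bub1 (SE, paired model), and the groups overlapped in both genes. Mad2l1, which encodes the checkpoint protein Mad2, and Ttk, the kinase Mps1 that starts checkpoint signalling, had changes of -0.72 and -0.75. Bub3, the binding partner of Bub1 and BubR1, had 3467, 3484, 3631 and 4324 normalised reads in Cre libraries 1 to 4, against 4072, 4050, 4536 and 4830 in GFP libraries 1 to 4. It varied little between libraries, and the groups overlapped only through Cre library 4. Its log2 change was -0.23 ± 0.04 (SE, paired model), the smallest of the 50 that fell, with an adjusted p of 0.00152 and of 0.283 without the block (limma).

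All 4 genes of the chromosomal passenger complex, which corrects faulty attachments and directs cytokinesis, fell in the paired model. Incenp, its scaffold, had 1040, 1429, 1935 and 2611 normalised reads in Cre libraries 1 to 4, against 2173, 2345, 3097 and 4282 in GFP libraries 1 to 4. Aurkb, its kinase, had 372, 859, 1036 and 1472 normalised reads in Cre libraries 1 to 4, against 967, 1513, 1863 and 2482 in GFP libraries 1 to 4. Library 4 was the highest in both groups for both genes, and Cre library 4 exceeded GFP library 1. The log2 change was -0.79 for Incenp, -0.95 for Aurkb, -0.72 for Birc5 (survivin) and -0.74 for Cdca8 (borealin), and the paired standard errors lay between 0.05 and 0.09.

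At the centromere and kinetochore, where spindle fibres attach, 9 of 9 genes fell in the paired model, with a median log2 change of -0.73. Cenpf, a large protein of the outer kinetochore, had 1253, 2425, 3553 and 4129 normalised reads in Cre libraries 1 to 4, against 3027, 3808, 4968 and 6400 in GFP libraries 1 to 4. Cenpe, the kinesin that moves chromosomes to the metaphase plate, had 768, 1326, 1977 and 2435 normalised reads in Cre libraries 1 to 4, against 1976, 2338, 2820 and 4401 in GFP libraries 1 to 4. In pair 3 the Cre values came nearest to GFP, at 71.5% for Cenpf and 70.1% for Cenpe, and in pair 1 they stood at 41.4 and 38.9%. Spc24, a subunit of the Ndc80 complex that binds microtubules, had 169, 522, 598 and 744 normalised reads in Cre libraries 1 to 4, against 502, 1007, 1056 and 1346 in GFP libraries 1 to 4. The change of Spc24, -1.05 ± 0.11 on the log2 scale (SE, paired model), was the largest of this group. The other subunits Ndc80, Nuf2 and Spc25 had changes of -0.73, -0.71 and -0.53. Cenpk, of the inner kinetochore, had 107, 230, 246 and 277 normalised reads in Cre libraries 1 to 4, against 317, 440, 372 and 433 in GFP libraries 1 to 4. The groups of Cenpk did not overlap, and its highest GFP value was that of library 2. Cenpa, the histone H3 variant that marks the centromere, had a change of -0.62, and Knstrn, a protein of kinetochores and spindles, one of -0.72.

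Among the genes of chromosome structure 7 of 7 fell in the paired model, with a median log2 change of -0.71. Top2a, the topoisomerase that untangles sister chromatids, had 3255, 6653, 8810 and 11549 normalised reads in Cre libraries 1 to 4, against 7315, 10712, 13120 and 19315 in GFP libraries 1 to 4. Mki67, whose product Ki-67 coats mitotic chromosomes and marks dividing cells, had 2101, 4740, 6873 and 7717 normalised reads in Cre libraries 1 to 4, against 5797, 8656, 11663 and 14383 in GFP libraries 1 to 4. The Cre share of GFP was lowest in pair 1, at 44.5% for Top2a and 36.2% for Mki67, and between 53.7 and 67.1% in the other pairs of both genes. Their log2 changes were -0.79 for Top2a and -0.998 for Mki67.

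Condensin compacts chromosomes for division. Ncapd2, a subunit of condensin I, had 3850, 6574, 8567 and 10945 normalised reads in Cre libraries 1 to 4, against 7293, 10415, 13180 and 16955 in GFP libraries 1 to 4. The log2 change of Ncapd2 was -0.71 ± 0.05 (SE, paired model), with an adjusted p of 9.75e-06 and of 0.365 without the block (limma). Ncapd2 (chr6:125168007-125191701, minus strand) lies 37416 bases from the end of Chd4 on the same chromosome. In the paired model all the other subunits fell as well, and the log2 change was -0.79 for Ncapg, -0.64 for Smc2, -0.44 for Smc4 and -0.36 for Ncaph. Ncapg overlaps Lcorl on the opposite strand, whose normalised reads were 72.8% of those of Ncapg.

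The 10 genes of the spindle and of cytokinesis all fell in the paired model, with a median log2 change of -0.67. Anln encodes anillin, a scaffold of the contractile ring. It had 1990, 3602, 4919 and 5534 normalised reads in Cre libraries 1 to 4, against 4579, 5901, 7333 and 9330 in GFP libraries 1 to 4. Tpx2, the spindle factor that activates Aurora A, had 1555, 2814, 3651 and 4486 normalised reads in Cre libraries 1 to 4, against 3236, 4295, 5316 and 6946 in GFP libraries 1 to 4. Within each group the libraries had the same order in both genes, and the log2 changes were -0.81 for Anln and -0.71 for Tpx2. Sapcd2 (chr2:25372321-25378213, plus strand), a regulator of spindle orientation, had 57, 81, 105 and 133 normalised reads in Cre libraries 1 to 4, against 141, 186, 252 and 275 in GFP libraries 1 to 4. No Cre value reached the lowest GFP value, and Cre stood at 40.4, 43.5, 41.7 and 48.4% of GFP in the 4 pairs. The log2 change of Sapcd2 was -1.19, the lowest of the 51, with an SE of 0.31 and an adjusted p of 0.118 without the block, and with an SE of 0.11 and an adjusted p of 2.29e-05 in the paired model (limma). Of the genes that control the cleavage plane, the GTPase activator Racgap1 had a log2 change of -0.79, the exchange factor Ect2 one of -0.63 and the microtubule bundler Prc1 one of -0.62. The spindle pole protein Aspm and the microtubule binders Hmmr, Nusap1 and Ckap2 had changes of -0.77, -0.60, -0.55 and -0.41.

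The 2 transcription factors that switch on mitotic genes fell too in the paired model. Foxm1 had 803, 1395, 1630 and 2056 normalised reads in Cre libraries 1 to 4, against 1774, 1911, 2809 and 3212 in GFP libraries 1 to 4. Mybl2, which encodes B-Myb, had 186, 310, 416 and 493 normalised reads in Cre libraries 1 to 4, against 394, 573, 738 and 960 in GFP libraries 1 to 4. In both genes each Cre value was below the GFP value of its number, while Cre library 4 was above GFP library 1. The log2 change was -0.76 ± 0.09 for Foxm1 and -0.94 ± 0.07 for Mybl2 (SE, paired model), with adjusted p-values of 0.000109 and 9.73e-06 (limma).

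Of the regulators that act with or against these factors, 6 of 16 fell with the block and 1 rose. Over all genes tested 21.7% fell and 22.2% rose. The median log2 change of the regulators was -0.05. The MuvB-binding pocket protein Rbl1 (p107) had a change of -0.82 and the DNA-binding NF-Y subunit Nfya one of -0.36. The increase was that of Cdkn1a, which encodes the CDK inhibitor p21. It had 27360, 29972, 24048 and 26090 normalised reads in Cre libraries 1 to 4, against 19387, 22131, 20713 and 17081 in GFP libraries 1 to 4. No Cre value of Cdkn1a lay below a GFP value, and its log2 change was 0.44 ± 0.06 (SE, paired model), with an adjusted p of 0.000266 and of 0.1005 without the block (limma).

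Mitotic genes outside the 51, listed by pathway, were mostly lower in Cre too. With the block, 88 of 112 such genes fell and 4 rose, against 21.7 and 22.2% of all genes. The median log2 change of the 112 was -0.51. Without the block 0 passed in limma and 0 in voom, with 41 lower and 2 higher at an unadjusted p under 0.05. Other kinetochore genes fell in 30 of 33, with a median of -0.62 and with the checkpoint genes Trip13 (-0.85) and Kntc1 (-0.75) among them. Other genes of the centrosome and spindle fell in 20 of 23, with a median of -0.59. Tacc3 and Spag5, both of the mitotic spindle, had changes of -0.72 and -0.85, and the augmin subunit Haus2 rose by 0.24. Other genes of late interphase and mitosis fell in 20 of 22, with a median of -0.68. Lmnb1 (lamin B1) and Cdca3 had changes of -0.68 and -0.91, Psrc1, a microtubule regulator, rose by 0.25, and Cks2 did not pass. All 3 genes specific to condensin II fell, with a median of -0.64, Ncapd3 having a change of -0.64 and Ncapg2 one of -0.82.

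Cohesin, the ring that holds sister chromatids together, and the anaphase-promoting complex had medians nearer to 0. Cohesin and its regulators fell in 10 of 15 genes, with a median log2 change of -0.27. Pds5b and Sgo1, which release or protect cohesin, had changes of -0.51 and -0.77. Of 16 genes of the anaphase-promoting complex and its partners 5 fell and 2 rose in the paired model, with a median of -0.10. Over all genes tested 21.7% fell and 22.2% rose. Its inhibitor Fbxo5 (Emi1) had a change of -0.93 and the catalytic subunit Anapc11 one of -0.43, while Cdc16 rose by 0.18 and Anapc16 by 0.14. The call of Anapc16 was lost in voom with the block, where its adjusted p was 0.0938, against 0.0497 in the paired model (limma). Whether the lists differ from each other was not tested.

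**Figure D4:**
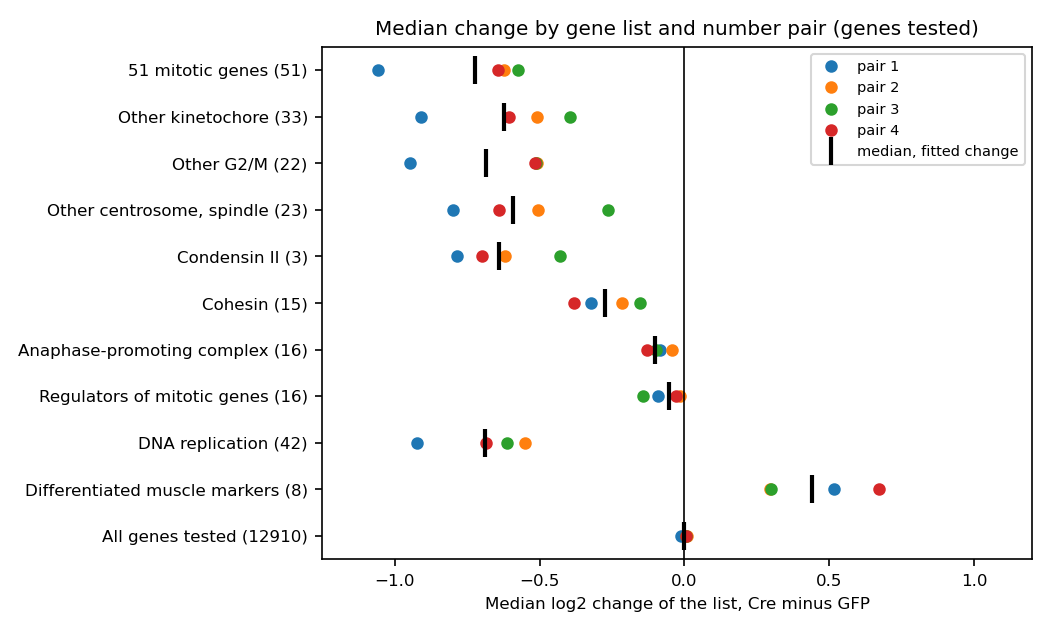
Coloured points give the median log2 change, Cre minus GFP, of each gene list in each pair of equal number, and black ticks the median of the fitted changes, with the number of genes tested in brackets. The 51 mitotic genes lie between -1.06 and -0.57, DNA replication genes beside them, the anaphase-promoting complex near 0, and differentiated muscle markers above 0 in all 4 pairs.

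DNA replication genes, the other large group tied to the cell cycle, were lower in Cre as well. In the paired model 41 of 42 passed as lower, against 21.7% of all genes tested, and the median log2 change was -0.69. Fen1 did not pass, though every change in the list was -0.28 or below. Mcm4 and Mcm3, subunits of the replicative helicase, had changes of -0.59 and -0.86. The median SD of their log2 values was 0.40 in Cre and 0.32 in GFP, against 0.66 in Cre and 0.47 in GFP for the mitotic genes. Of the replication genes 19 of 42 had all Cre values below all GFP values, against 2 of the 51 mitotic genes and 6.17% of all genes tested. At an unadjusted p under 0.05 (limma) 37 of 42 were lower, against 16 of the 51 and 9.3% of all genes. Without the block 0 of either list passed in limma or voom. The difference between the lists was not tested.

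Markers of cell state and of other cell types did not all move the same way. The summed normalised reads of 8 markers of differentiated muscle, such as myogenin and embryonic myosin, were 87131, 314447, 322529 and 187952 in Cre libraries 1 to 4, against 65304, 267566, 248399 and 120889 in GFP libraries 1 to 4. The sum was higher in Cre in each pair. Library 1 was the lowest of both groups, as it was for most mitotic genes. Library 4 lay below libraries 2 and 3 in both groups, while it was the highest for most mitotic genes. All 8 markers rose in the paired model, against 22.2% of all genes tested. In voom with the block 7 rose, and Ckm did not pass (adjusted p of 0.0711). Without the block 0 of the 8 passed in limma or voom, and in limma 0 reached 0.05 even before adjustment. Their median log2 change was 0.44, with a median standard error of 0.58 without the block and 0.08 with it. In all 8 markers the values of the groups overlapped. The part of differentiated cells in the mitotic result was not tested. The sum of 7 myogenic markers, Pax7 and Myod1 included, was 93813 to 112051 in Cre libraries and 92447 to 100684 in GFP libraries. All 7 were detected in every library, Pax7 at 4381 to 6458 in Cre and 5390 to 6704 in GFP. In the paired model 3 of the 7 fell and 2 rose, against 21.7 and 22.2% of all genes tested, and without the block 0 passed. The log2 changes of the 7 ran from -0.57 to 0.20, so the sum does not show the change of each marker.

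Marker sums of cells that a sort could carry along were low for endothelial, blood and glial cells, and higher for fibroadipogenic and mural cells. Endothelial markers, 4 of 5 listed, summed to 110 to 166 normalised reads in Cre and 69 to 113 in GFP, with Cdh5 at 9 or fewer in every library. Blood markers, 2 of 5 listed, summed to 115 to 455 in Cre and 51 to 278 in GFP, and glial markers, 2 of 3 listed, to 64 to 75 in Cre and 36 to 106 in GFP. Fibroadipogenic markers, 3 of 5 listed, summed to 10072 to 26454 in Cre and 13186 to 28869 in GFP, nearly all of it Col3a1, while Dcn stood at 22 or fewer in every library. Mural markers, 5 of 5, summed to 29317 to 68794 in Cre and 9421 to 20863 in GFP, so every Cre sum lay above every GFP sum. Nearly all of it was Rgs5 and Notch3, while the smooth muscle myosin Myh11 stood at 9 or fewer. Of the 4 mural markers tested 3 rose and 0 fell in the paired model, against 22.2% of all genes that rose. Without the block 1 rose, against 0.837% of all genes (limma). The part of such cells in the mitotic result was not tested. The other listed markers were not analysed here.

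RefSeq promoter windows of 300 bases, from 250 before to 50 after a gene start, were available for 43 of the 51 genes, in 48 windows. Both strands were searched for TTTGAA and for CCAAT, and neighbouring matches can share a base. The CHR core was in 30 of 48 windows (62.5%), against 17.9% of all 32851 windows, and CCAAT in 36 of 48 (75.0%), against 37.4%. A CHR core within 50 bases of the start together with a CCAAT box was in 24 of 48 windows (50%), against 2.1% of all windows. The kinetochore gene Cenpa, the checkpoint kinase Ttk and the condensin subunit Smc2 were among the genes with both elements, and Birc5, Melk and Mybl2 among those with neither.

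**Figure D5:**
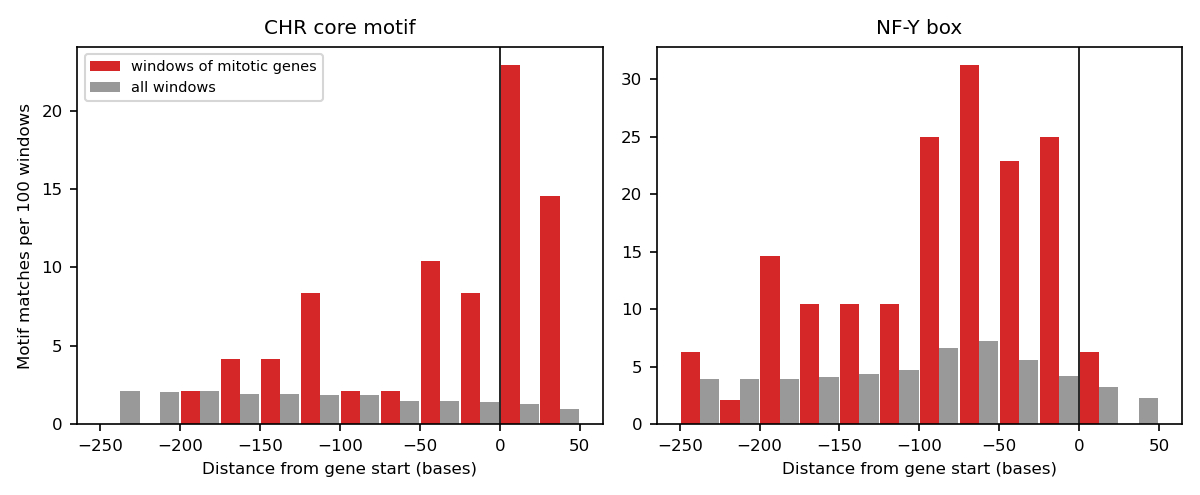
Bars give the matches per 100 promoter windows in bins of 25 bases by distance from the RefSeq gene start, in red for the 48 windows of mitotic genes and in grey for all 32851 windows. The CHR core is most frequent in the 25 bases after the start, at 22.9 per 100 mitotic windows against 1.31 per 100 of all, and the NF-Y box lies mostly within 100 bases upstream.

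Genes with and without these letters had close medians, and the difference was not tested. The median log2 change was -0.72 in the 27 genes with a CHR core in a window and -0.72 in the 16 without. It was -0.71 in the 31 genes with a CCAAT box and -0.72 in the 12 without. Among the larger falls with a window, Sapcd2, Melk and Mybl2, with changes from -1.19 to -0.94, had neither element. Mki67 (-0.998) and Espl1 (-0.94) had both. Spc24 (-1.05), Ccna2 (-0.96) and Aurkb (-0.95) had no window. The start used for the Sapcd2 window lies 286 bases upstream of the gene start in the deposited table. Among the smaller falls, Bub3 (-0.23) had both, while Pttg1 (-0.37) and Ncaph (-0.36) had neither. A match of letters does not show that a factor binds there, and no match says only that the letters are not in this window.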

How the data were processed

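Total RNA of 8 libraries was sequenced, and the libraries were stranded per the labels' protocols. The submitters' processing notes list the tools STAR 2.5.3a, featureCounts 1.5.3, Subread and DESeq and the genome builds GRCm38 and mm10, with no role or order. Annotation, filters and strand use in counting: not given in the sources used here. The deposited values are read counts per gene that the authors scaled between libraries and rounded, treated here as a score. Totals lay between 27897860 and 28876348, and original depths of 23.3 to 38.0 M reads were estimated from the steps between low values. Intervals on such counts would cover counting error only, since reads are not independent molecules.

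Tests were run in limma 3.58.1 under R 4.3.3 on log2(value + 1), with a trend of variance on intensity. This scale understates the change of low genes. Genes with 1 CPM (relative to the library total) in at least 4 libraries were kept, and p-values were two-sided and Benjamini-Hochberg adjusted over all 12910, with a threshold of 0.05. Groups came from titles. The main model had no block. Since every pair of same-numbered libraries deviated together (correlations of 0.820 to 0.908), a paired model blocked on that number stands beside it. The scripts were tested on simulated data.

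The 51 members, their roles and all other lists were chosen with earlier results of these data known. Values in every library are given for the 2 members of each role with the highest mean value, the member with the largest change, and any member not called with the block or changed against the median. Cenpk was added after its values were seen, since its groups did not overlap. Of each other list the 2 genes with the smallest paired p and those called against the list median are named, and other genes by choice after their values were seen. Lengths came from GENCODE M21, promoter windows from RefSeq (GRCm38.p6), and Python 3.11.15 with pandas 2.3.3 and matplotlib 3.10.9 was used for tables and figures. Alternatives were another pseudocount, filter, scaling, limma voom, the block and leaving out libraries.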

Additional observations from a re-analysis of the deposited data

How the results depend on the processing

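The 50 members called with the replicate block stayed called under all 11 alternatives of that paired model in which they were tested, with adjusted p-values up to 0.00886; at 5 CPM Sapcd2 was not tested and the count was 49. Without the block 0 members passed under any alternative, with adjusted p-values of the 50 from 0.0748 to 0.888, against 50 with the replicate block. The genes called over the whole table were 140 without the block (108 higher, 32 lower), 85 at 5 CPM, 5665 with the replicate block, 11 to 58 with a library left out and 39 without replicate 1 in both groups, a setting added after the data were seen. Among other pathway genes 0 passed without the block and 92 with the replicate block. Members without overlap numbered 2, and 2 to 18 with a library left out (12 without Cre library 4, 18 without GFP library 1). The share of all genes without overlap was not computed with a library left out. The change of Cdc25b, 0.01, turned negative on rescaling to the same total (-0.0083 in either model), in voom (-0.0077 without and -0.0077 with the block), with a library left out (range -0.11 to 0.13, negative without Cre library 4 or GFP library 1), and without pair 4 in the paired model (-0.0049). Rescaling moved the median of all genes by at most 0.02. The replicate numbers pair the libraries on their values alone.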
